A study of Mus musculus with 3 samples.

Results

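The miR-99/100 and miR-125 families are described here in the postnatal mouse heart, through the 5 mature microRNAs (miRNAs) miR-99a-5p (MIMAT0000131), miR-99b-5p (MIMAT0000132), miR-100-5p (MIMAT0000655), miR-125a-5p (MIMAT0000135) and miR-125b-5p (MIMAT0000136). They were picked by their accession numbers, not by their counts, and took up 6 of the 2049 rows and 5 of the 1900 mature accessions in the count table. Hearts came from wild type C57BL/6 mice on postnatal day 1 (P1), day 7 (P7) and day 28 (P28), with no treatment or transgene in any group and 1 small RNA library at each age. The labels give the tissue as heart and the study describes ventricles. How many animals went into a library is not given in the sources used here. Each difference below compares 2 libraries and has no replicate check.

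A miRNA is loaded into an Argonaute protein and lowers the output of messenger RNAs that pair with its seed, the bases near its 5′ end, so miRNAs that share a seed are grouped as a family. The miR-125 family is the vertebrate counterpart of lin-4, which, like let-7, was found in worms as a timer of development. The miR-99/100 family is known for targets in insulin-like growth factor and mTOR signaling, the growth pathway around the kinase mTOR. In the mouse genome, genes of both families lie beside let-7 genes, in an arrangement shared by several clusters.

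All 5 members were matched by name to RefSeq entries. Their mature sequences are shown because the grouping into families, and the ease with which reads of some members could be confused, follow from them. Capitals mark the seed, bases 2 to 8 counted from the 5′ end.
miR-99a-5p: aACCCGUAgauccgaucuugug
miR-100-5p: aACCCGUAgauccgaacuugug
miR-99b-5p: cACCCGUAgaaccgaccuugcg
miR-125a-5p: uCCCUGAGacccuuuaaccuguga
miR-125b-5p: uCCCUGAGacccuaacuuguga

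The first 3 sequences share the seed ACCCGUA, which no other of the 1679 mature names in the RefSeq table carries. The count table has more accessions, 1900, than that table has names, so other accessions with this seed were not searched for in full. Between miR-99a-5p and miR-100-5p there is 1 difference, U16A (miR-99a-5p first, positions from the 5′ end), outside the seed. Between miR-99a-5p and miR-99b-5p there are 4, A1C, U11A, U16C and U21C. The seed CCCUGAG of the miR-125 pair is also carried by 3 other names, miR-351-5p, miR-6367 and miR-6394, which were not analysed here, so the miR-125 sum covers 2 of 5 names with that seed. miR-125a-5p has 24 bases and miR-125b-5p 22, and their first 13 bases are identical.

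The genes lie in 3 clusters, given in GRCm38 coordinates, which is the mm10 assembly named by the study. On chromosome 17, Mir99b (chr17:17830188-17830257), Mirlet7e and Mir125a (chr17:17830812-17830879) lie within 692 bases on the plus strand. In GENCODE, Mir99b is intronic to the protein-coding gene Spaca6, and Mir125a overlaps an exon of an annotated Spaca6 transcript on the same strand. On chromosome 16, Mir99a (chr16:77598936-77599000), Mirlet7c-1 and Mir125b-2 (chr16:77646273-77646343) span 47408 bases and lie in introns of the noncoding host gene Mir99ahg. Mir125b-2 also overlaps an exon of C130023A14Rik on the same strand. On chromosome 9, Mir100 (chr9:41531425-41531504), Mirlet7a-2 and Mir125b-1 (chr9:41581926-41582002) span 50578 bases and lie in introns of the noncoding gene 3110039I08Rik. Mir125b-1 also overlaps an exon of Gm28119 on the same strand. miR-125b-5p is thus made from 2 genes on different chromosomes, and the other 4 members from 1 gene each.

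The P1 library was the shallowest, with a total of 1944237 counts, against 2465680 for P7 and 2842526 for P28. Levels are given as CPM, the reads of a miRNA per 1000000 counts over all rows of its library. A read covers a short RNA as a whole, so no correction for length was made. The capture of different miRNAs by the adapters can differ, and a level of one member against another is given as reads only. Intervals are 95% intervals that cover counting error only. A mature accession entered the comparisons when it averaged at least 10 CPM over the libraries, which 279 accessions, all 5 members included, did, and it was called higher or lower when its CPM differed at least 2-fold. In whole hearts, fewer cells of a type and less of a miRNA per cell cannot be told apart.

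The members were among the more abundant miRNAs at every age. Their sum amounted to 1.45% of the P1 library, 2.25% of the P7 library and 2.10% of the P28 library. miR-99a-5p led at each age, ranking 20th among mature accessions at P1, 12th at P7 and 13th at P28. The lowest rank of any member was 52nd, for miR-125a-5p at P7.

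Within the miR-99/100 family under library totals, miR-100-5p was higher after day 1, miR-99a-5p came just short of 2-fold above its P1 level, and miR-99b-5p was lower by day 28. miR-99a-5p was at 6003 CPM in P1 hearts (11671 reads, Wilson interval 5895 to 6112), 11940 CPM in P7 hearts (29441 reads, 11806 to 12077) and 10290 CPM in P28 hearts (29251 reads, 10174 to 10408). Under library totals it was lowest at P1 and highest at P7, with P28 closer to P7. miR-100-5p was at 1252 CPM in P1 hearts (2435 reads, 1204 to 1303), 2865 CPM in P7 hearts (7065 reads, 2799 to 2933) and 3172 CPM in P28 hearts (9017 reads, 3107 to 3238). Under library totals its P7 level lay closer to P28 than to P1, which did not hold under TMM or DESeq2 size factors, given below. miR-99b-5p took the opposite course, at 3047 CPM in P1 hearts (5925 reads, 2971 to 3126), 2672 CPM in P7 hearts (6589 reads, 2609 to 2738) and 1189 CPM in P28 hearts (3380 reads, 1150 to 1230). The P28 library held fewer reads of it than the P1 library, although its total of counts was larger. As scaled by TMM, given below, the P28 total was the smaller one, at 1998259 against 2143775.

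In the miR-125 family, no member passed 2-fold under library totals, which scalings given below changed for miR-125b-5p. miR-125b-5p had its lowest level at P1 and its highest at P28, with intervals that lay apart at all 3 ages. miR-125b-5p was at 2896 CPM in P1 hearts (5631 reads, 2822 to 2973), 4018 CPM in P7 hearts (9907 reads, 3940 to 4098) and 5175 CPM in P28 hearts (14710 reads, 5092 to 5259). miR-125a-5p was at 1288 CPM in P1 hearts (2505 reads, 1239 to 1340), 1034 CPM in P7 hearts (2550 reads, 995 to 1075) and 1164 CPM in P28 hearts (3310 reads, 1125 to 1205). Under library totals its highest and lowest ages, P1 and P7, differed 1.25-fold. Under TMM and DESeq2 size factors, given below, miR-125a-5p was highest at P28, with log2 ratios to P7 of 0.82 and 0.90.

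**Figure D1:**
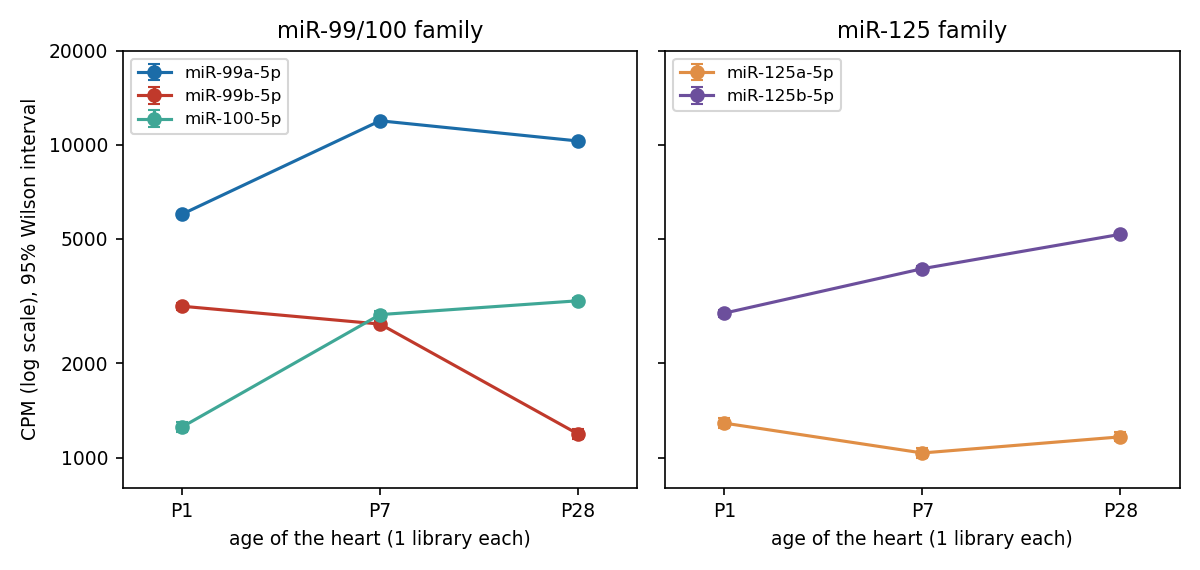
Level of each member in CPM (vertical axis, log scale) in the P1, P7 and P28 libraries (horizontal axis), with 95% Wilson intervals that are mostly smaller than the points. miR-99b-5p lies above miR-100-5p in P1 hearts (3047 against 1252 CPM) and below it in P28 hearts (1189 against 3172 CPM).

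The order of the members therefore differed between ages. At P1 it was miR-99a-5p, miR-99b-5p, miR-125b-5p, miR-125a-5p and miR-100-5p. The CPM intervals of miR-99b-5p and miR-125b-5p overlapped there, although their reads taken as a ratio stood at 1.05 (1.01 to 1.09). Those of miR-125a-5p and miR-100-5p overlapped as well, at 0.97 reads of miR-100-5p per read of miR-125a-5p (0.92 to 1.03). At P7 the order was miR-99a-5p, miR-125b-5p, miR-100-5p, miR-99b-5p and miR-125a-5p, with no overlap between neighbours. At P28 the order was the same as at P7, but the intervals of miR-99b-5p and miR-125a-5p overlapped.

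The study sequenced these hearts to find miRNAs that move during early postnatal growth, when cardiomyocytes stop dividing, and the first step runs from P1 to P7. miR-100-5p was higher at P7, by 2.29-fold, with a log2 ratio of 1.19 (Clopper-Pearson interval 1.13 to 1.26). miR-99a-5p was at 1.99 times its P1 level, with a log2 ratio of 0.99 whose interval, 0.96 to 1.02, lay across the threshold. miR-125b-5p had a log2 ratio of 0.47 (0.42 to 0.52). miR-99b-5p and miR-125a-5p had ratios below 0, at -0.19 (-0.24 to -0.14) and -0.32 (-0.40 to -0.24). Of the 5 members, 1 was called higher and 0 lower, while 11.1% of the 279 accessions were called higher and 11.5% lower. The median log2 ratio was 0.47 over the members and 0.03 over all accessions compared.

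Over the whole interval from P1 to P28, the members differed in direction under library totals. miR-100-5p was 2.53-fold higher at P28, with a log2 ratio of 1.34 (1.28 to 1.41), and 17 of the 279 accessions had a higher ratio. miR-99b-5p was 2.56-fold lower, with a log2 ratio of -1.36 (-1.42 to -1.30), and 184 accessions had a higher ratio. miR-125b-5p, at 0.84 (0.79 to 0.88), and miR-99a-5p, at 0.78 (0.75 to 0.81), were above their P1 levels by less than 2-fold. miR-125a-5p was at -0.15 (-0.22 to -0.07). Thus 1 member was called higher and 1 lower, against 13.6% higher and 42.7% lower among all accessions. The median over all accessions was -0.74, and that over the members was 0.78. Relative to the median accession, miR-99b-5p was at -0.62, miR-125a-5p at 0.59, and the other members between 1.51 and 2.08. Over the 134 accessions that averaged at least 100 CPM, nearer to the members in abundance, the median was higher, at -0.36.

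From P7 to P28, miR-99b-5p was the only member past 2-fold under library totals, which scalings given below changed. It was 2.25-fold lower, with a log2 ratio of -1.17 (-1.23 to -1.11). The others ranged from -0.21 (-0.24 to -0.19) for miR-99a-5p to 0.37 (0.33 to 0.40) for miR-125b-5p. In this comparison 0 of 5 members were called higher and 1 lower, against 2.87% and 42.7% of all accessions. The median accession was at -0.79, so that 4 of the 5 members lay above it, and miR-99b-5p was 0.38 below it on the log2 scale. Over the 134 accessions that averaged at least 100 CPM, the median was -0.52.

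**Figure D2:**
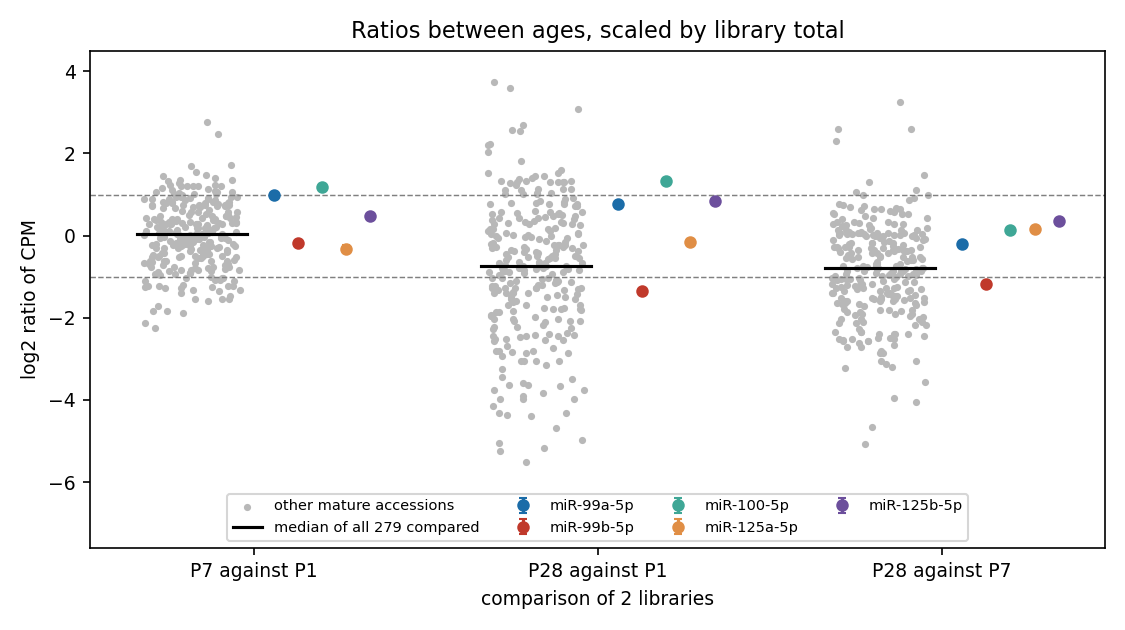
log2 ratio of CPM (vertical axis) for each comparison of 2 libraries (horizontal axis), with the members as coloured points with 95% intervals, the other accessions compared as grey points, their common median as a black line and the 2-fold threshold dashed. At P28 against P1, miR-100-5p (1.34) and miR-99b-5p (-1.36) lie beyond opposite thresholds while the median accession is at -0.74.

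Sums over a family hid these differences between its members. The miR-99/100 family was at 10303 CPM in P1 hearts (10162 to 10446), 17478 CPM in P7 hearts (17315 to 17642) and 14652 CPM in P28 hearts (14513 to 14792), with log2 ratios to P1 of 0.76 at P7 and 0.51 at P28. The miR-125 family was at 4185 CPM in P1 hearts (4095 to 4276), 5052 CPM in P7 hearts (4964 to 5141) and 6339 CPM in P28 hearts (6248 to 6432), with log2 ratios of 0.27 and 0.60. Under library totals neither sum reached 2-fold in any comparison, which the scalings given below changed. For every read of the miR-125 family there were 2.46 of the miR-99/100 family in P1 hearts (2.40 to 2.53), 3.46 in P7 hearts (3.39 to 3.53) and 2.31 in P28 hearts (2.27 to 2.35), so that this balance was highest at P7 and close to its starting value at P28.

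The make-up of a family does not depend on how libraries are scaled to each other, because all shares come from one library. miR-99b-5p contributed 29.6% of the reads of its family in P1 hearts (Wilson interval 29.0 to 30.2), 15.3% in P7 hearts (15.0 to 15.6) and 8.12% in P28 hearts (7.86 to 8.38). Its share was lower at each later age, and the 3 intervals lay apart. miR-99a-5p contributed 58.3% in P1 hearts (57.6 to 58.9), 68.3% in P7 hearts (67.9 to 68.8) and 70.2% in P28 hearts (69.8 to 70.7). miR-100-5p contributed 12.2% in P1 hearts (11.7 to 12.6), 16.4% in P7 hearts (16.0 to 16.7) and 21.7% in P28 hearts (21.3 to 22.0). In the miR-125 family, the share of miR-125a-5p was 30.8% in P1 hearts (29.8 to 31.8), 20.5% in P7 hearts (19.8 to 21.2) and 18.4% in P28 hearts (17.8 to 18.9), and miR-125b-5p made up the rest. In both families the member encoded on chromosome 17 thus had its largest share at P1.

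**Figure D3:**
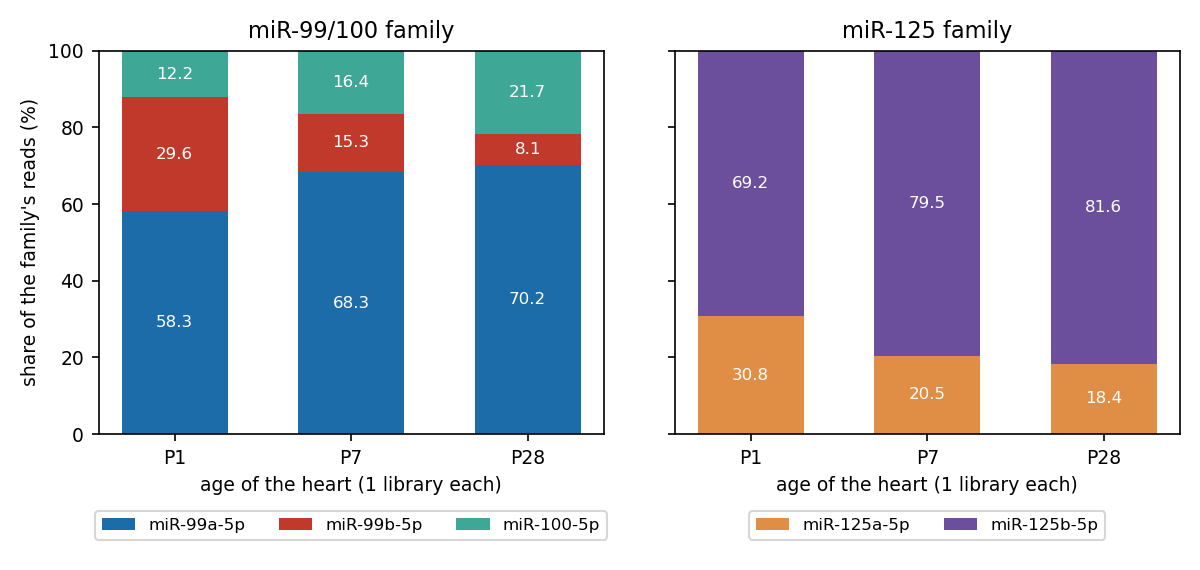
Share of each member in the reads of its family, in percent (vertical axis), in the P1, P7 and P28 libraries (horizontal axis), 1 bar per library with the shares printed. The share of miR-99b-5p is 29.6% at P1 and 8.12% at P28, and that of miR-125a-5p is 30.8% at P1 and 18.4% at P28.

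Ratios between members in one library set them pair by pair, and within a family they use the same reads as the shares. In the P1 library there were 1.97 reads of miR-99a-5p for each read of miR-99b-5p (Clopper-Pearson interval 1.91 to 2.03), in the P7 library 4.47 (4.35 to 4.59) and in the P28 library 8.65 (8.35 to 8.97). From P1 to P28 this ratio grew 4.39-fold, by 2.14 on the log2 scale (2.07 to 2.20). The ratio of miR-99b-5p to miR-100-5p went from 2.43 (2.32 to 2.55) to 0.93 (0.90 to 0.96) and then 0.37 (0.36 to 0.39), a 6.49-fold difference between P1 and P28 and the widest of the 10 pairs of members. The pair of closest sequence, miR-99a-5p and miR-100-5p, stayed nearer to each other, at 4.79 reads of the former per read of the latter (4.59 to 5.01), then 4.17 (4.06 to 4.28) and 3.24 (3.17 to 3.32). miR-99a-5p and miR-125b-5p, which have genes in the same chromosome 16 cluster, were at 2.07 (2.01 to 2.14), 2.97 (2.90 to 3.04) and 1.99 (1.95 to 2.03), and their ratio at P28 against P1 differed by -0.06 (-0.11 to -0.01) on the log2 scale. The ratio of miR-100-5p to miR-125b-5p, with genes in the chromosome 9 cluster, differed by 0.72 (0.64 to 0.80) at P7 against P1. At P28 against P1 that ratio differed by 0.50 (0.43 to 0.58).

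The pair from the compact chromosome 17 cluster did not move as one. miR-99b-5p and miR-125a-5p stood at 2.37 reads of the former per read of the latter in P1 hearts (2.26 to 2.48), 2.58 in P7 hearts (2.47 to 2.71) and 1.02 in P28 hearts (0.97 to 1.07). Between P1 and P7 their ratio differed by 0.13 on the log2 scale (0.03 to 0.22), and between P7 and P28 by -1.34 (-1.43 to -1.24). The lower share of this cluster thus had a different composition at P7 and at P28. Its 2 members together held 29.9% of the reads of all 5 members in P1 hearts (29.4 to 30.5), 16.5% in P7 hearts (16.1 to 16.8) and 11.2% in P28 hearts (11.0 to 11.5). The 3 members encoded on chromosomes 9 and 16 summed to 10152, 18824 and 18638 CPM in the P1, P7 and P28 libraries, and the chromosome 17 pair to 4336, 3706 and 2354 CPM.

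**Figure D4:**
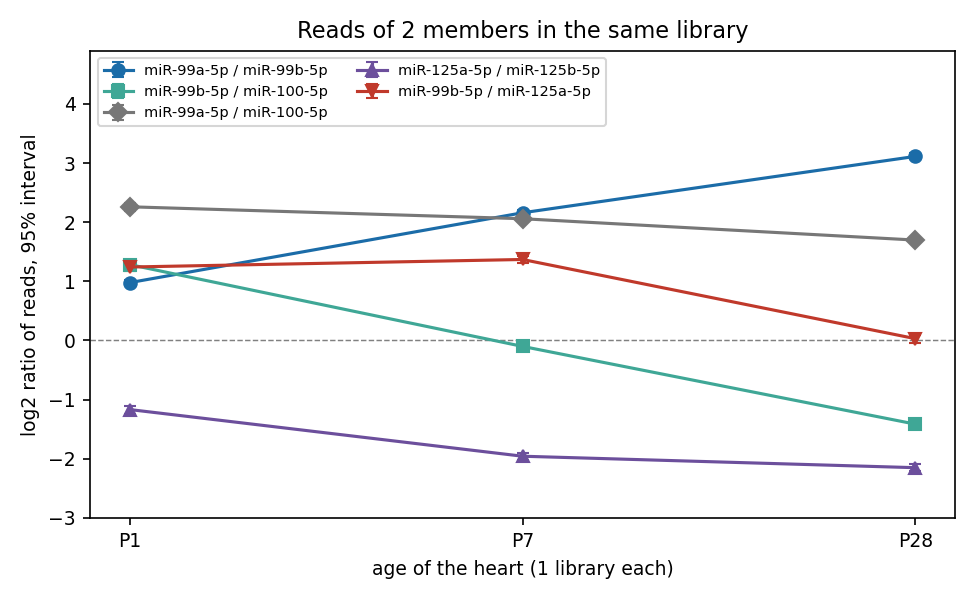
log2 ratio of the reads of 2 members in the same library (vertical axis) at P1, P7 and P28 (horizontal axis), with 95% Clopper-Pearson intervals and a dashed line at equal reads. The ratio of miR-99a-5p to miR-99b-5p goes from 0.98 to 3.11, that of miR-99b-5p to miR-100-5p from 1.28 to -1.42, and that of miR-99b-5p to miR-125a-5p from 1.24 at P1 to 0.03 at P28.

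Differences from P28 to a younger age depended on the scaling, which moves all members by one amount. The median accession was below 0 in both comparisons with P28 under library totals. TMM scaling, which places the typical accession near no difference, moved that median by 0.65 at P28 against P1 and by 0.64 at P28 against P7. Under TMM, miR-99a-5p and miR-125b-5p passed 2-fold at P28 against P1, with log2 ratios of 1.43 and 1.49, and miR-99b-5p, at -0.71, no longer passed. miR-125a-5p turned from -0.15 to 0.50, and miR-99a-5p at P28 against P7 from -0.21 to 0.43. At P28 against P7, miR-99b-5p no longer passed 2-fold, at -0.52 under TMM and -0.44 under DESeq2 size factors. There miR-125b-5p passed instead, at 1.01 and 1.09. As a level, though not as a log2 ratio, miR-100-5p under TMM differed more between P7 and P28 than between P1 and P7, with log2 ratios to P1 of 1.20 at P7 and 1.99 at P28.

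The sums moved likewise. At P28 against P1, the miR-99/100 family passed 2-fold at 1.16 under TMM and 1.20 under DESeq2 size factors, and the miR-125 family at 1.25 and 1.29 (1.08 without the 10 most abundant accessions). At P28 against P7, the miR-99/100 family turned from -0.25 to 0.39 and 0.47, and the miR-125 family went from 0.33 to 0.97 and 1.05. The chromosome 17 pair went from -0.88 to -0.23 and -0.19 at P28 against P1, and from -0.66 to -0.01 and 0.07 at P28 against P7. The members of chromosomes 9 and 16 went from 0.88 to 1.53 and 1.57 at P28 against P1, and from -0.01 to 0.63 and 0.71 at P28 against P7. The sign of the chromosome 17 pair between P7 and P28 thus depended on the scaling, while its share of the members' reads did not. DESeq2 size factors moved the median by 0.69 and 0.73 in these comparisons, and totals without the 10 most abundant accessions, none of them a member, by 0.48 and 0.35. The latter also moved it by 0.13 at P7 against P1, where miR-99a-5p then passed 2-fold at 1.12. At P28 against P1, the ratios of miR-100-5p, miR-125b-5p and miR-99a-5p lay above 0 and that of miR-99b-5p below 0 under each of the 5 scalings compared.

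**Figure D5:**
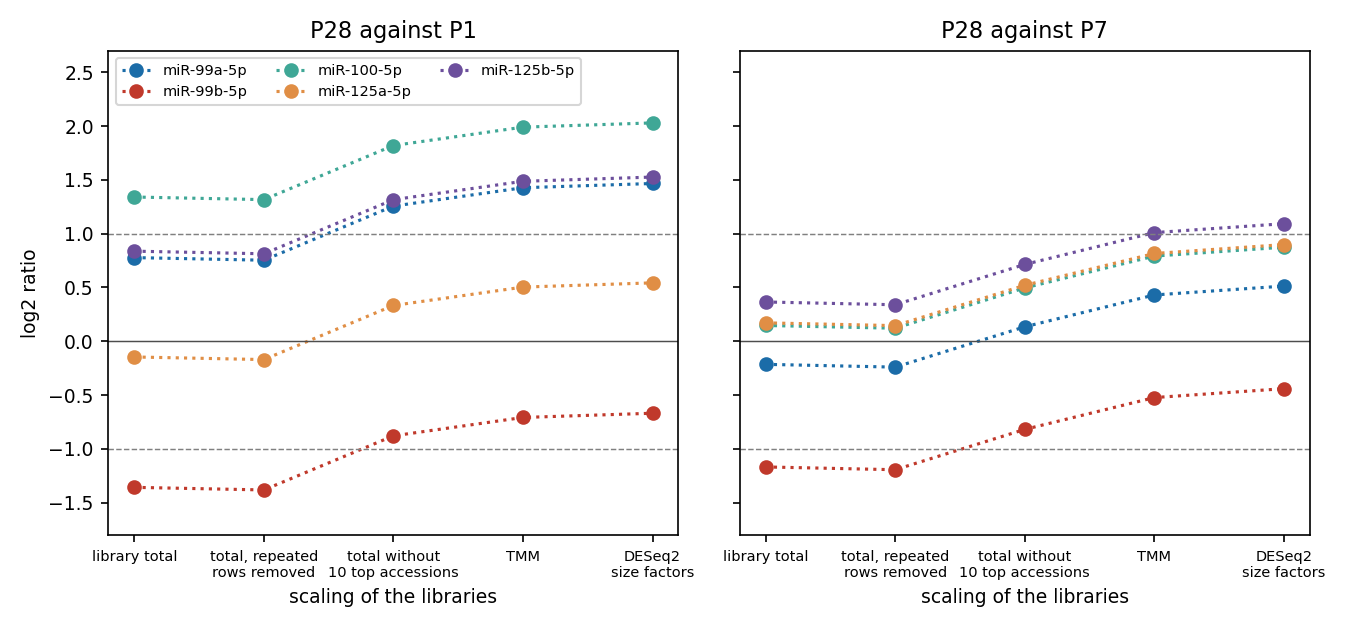
log2 ratio of each member (vertical axis) under 5 scalings of the libraries (horizontal axis; dotted lines only join points of one member) for P28 against P1 and P28 against P7, with the 2-fold threshold dashed. All members shift together, so miR-125a-5p crosses 0 at P28 against P1 (-0.17 to 0.54) while miR-99b-5p stays below 0 (-1.38 to -0.67).

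The 2 rows of miR-125b-5p, by the convention of the accession suffix its genomic copies, shared its reads almost evenly. The first row held 49.7% in P1 hearts (48.4 to 51.0), 48.2% in P7 hearts (47.3 to 49.2) and 48.6% in P28 hearts (47.8 to 49.4). With identical mature sequences, the reads do not show which gene they came from. Taken singly, the rows gave log2 ratios of 0.81 and 0.87 at P28 against P1, both within the interval of their sum. Levels and shares depended on summing them. With the first or the second row by itself, miR-125b-5p would hold 52.8% or 53.1% of its family at P1, 65.2% or 66.8% at P7 and 68.4% or 69.5% at P28, in place of 69.2%, 79.5% and 81.6%. The share was lowest at P1 and highest at P28 in each case. A single row, at 4780 or 5127 reads in P7 hearts and 7154 or 7556 in P28 hearts, would also place miR-125b-5p below miR-100-5p at both ages, and at P7 below miR-99b-5p. How reads that fit both rows were counted is not given in the sources used here. None of the 6 rows had counts within 1% of a row of another accession in every library, among rows with at least 300 reads. How reads with a mismatch were assigned is not given in the sources used here, which bears most on miR-99a-5p and miR-100-5p with their single difference.

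Among 129 other mature accessions that averaged at least 100 CPM, those with the most similar course over the 3 libraries were sought by the distance between their pairs of log2 ratios (P7 against P1 and P28 against P7). The nearest to the miR-99/100 sum was MIMAT0000126, at a distance of 0.15, with 4065, 7364 and 5701 CPM in order of age. The nearest to the miR-125 sum was MIMAT0000517, at 0.06, with 224, 259 and 326 CPM (435, 639 and 928 reads). The tables used here pair neither with a name. The accessions in second place were at 0.20 from the miR-99/100 sum and 0.22 from the miR-125 sum. No interval was computed for these distances, so how well the nearest is set apart by its reads was not tested. Within the members, the closest courses were those of miR-99a-5p and miR-100-5p, at a distance of 0.41, and the farthest those of miR-99b-5p and miR-100-5p, at 1.91, although all 3 share a seed. The course of miR-125a-5p was nearer to that of miR-125b-5p, at 0.81, than to that of miR-99b-5p from its own gene cluster, at 1.35.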

How the data were processed

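Small RNA libraries (NEBNext kit, per the labels) from hearts at P1, P7 and P28 were used, 1 per age. The authors deposited raw read counts per miRNA row, not normalized. The study's sequencing methods name TopHat2, the mm10 genome and, for counting, packages from Bioconductor. The miRBase release and the handling of reads with several positions are not given in the sources used here. Strand use is not given either.

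Rows of an accession were summed and stem-loop rows (4.04 to 6.72% of counts) were kept only in the totals. The 3 columns were matched to ages by their names. Ratios used a pseudocount of 0.5 reads. The quasi-likelihood test of edgeR needs replicates and was not run, so no p-value is given. Intervals for shares and levels are Wilson and those for ratios Clopper-Pearson; changes of a ratio of 2 members used a normal approximation on the log scale. Intervals cover counting error only. As reads without molecular identifiers are not independent molecules, the intervals can be too narrow even for that. At the depths here, 3 reads correspond to 1.06 to 1.54 CPM.

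Members, lists and comparisons were chosen with earlier results of these data known. The sums by gene cluster were added after the members' values were seen. The rule for names took the 5 members, their 3p arms, the let-7 miRNAs of their clusters and, per family, the 3 accessions of nearest course. As the accessions are not paired with names in the tables used here, the 3p arms, the let-7 list and the marker miRNAs of heart and other cell types were not analysed here, and 2 nearest accessions are printed without names. Alternatives were TMM (edgeR 4.0.16), DESeq2 1.42.0 size factors, totals without the 10 most abundant accessions or without repeated rows, a pseudocount of 5 reads, filters at 1 CPM, at 100 CPM or none, calls at 1.5-fold or 4-fold, and single rows. R 4.3.3, Python 3.11.15, scipy 1.17.1 and matplotlib 3.10.9 were used. Sequences and gene positions are from RefSeq (GRCm38.p6), overlaps from GENCODE.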

Additional observations from a re-analysis of the deposited data

How the results depend on the processing

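Variation between hearts was not measured, and no replicate was left out. No paired analysis was possible because there is 1 library per age. Shares within a family and ratios within a library cannot be moved by scaling. Counts below are higher and lower calls.

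Members: at P7 against P1 (1 and 0), the total without the 10 most abundant accessions gave 2 higher, 1.5-fold gave 2 and 4-fold gave 0. At P28 against P1 (1 and 1), TMM, DESeq2 size factors and the total without the 10 accessions each gave 3 and 0, 1.5-fold gave 3 higher, and 4-fold gave 0 and 0. At P28 against P7 (0 and 1), TMM and DESeq2 size factors each gave 1 and 0, and both the total without the 10 accessions and 4-fold gave 0 lower.

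All accessions: at P7 against P1 (31 and 32), 1.5-fold gave 70 and 65, 4-fold 2 and 2, 1 CPM 67 and 71, 100 CPM 17 and 14, and no filter 208 and 188. The total without the 10 accessions gave 43 and 24. The share of calls that were higher was 49.2%, and 64.2% without the 10 accessions. At P28 against P1 (38 and 119), TMM gave 70 and 80, and DESeq2 size factors 72 and 80. The total without the 10 accessions gave 59 and 87, and 1.5-fold 53 and 147. There 4-fold gave 9 and 64, 1 CPM 76 and 211, 100 CPM 19 and 46, and no filter 172 and 357. At P28 against P7 (8 and 119), TMM gave 32 and 61, and DESeq2 size factors 39 and 57. The total without the 10 accessions gave 17 and 89, and 1.5-fold 22 and 155. There 4-fold gave 4 and 44, 1 CPM 39 and 204, 100 CPM 2 and 44, and no filter 111 and 358. The higher share of calls went from 24.2% to 46.7% under TMM, 47.4% under DESeq2 size factors and 40.4% without the 10 accessions at P28 against P1. At P28 against P7 it went from 6.30% to 34.4% under TMM and 40.6% under DESeq2 size factors. Thresholds and filters change these counts by construction. No called log2 ratio of a member changed sign. Of the single values of members, families and gene-cluster sums under an alternative, single rows of miR-125b-5p included, 71 stayed within their counting interval and 76 did not.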
